A study of Mus musculus with 12 samples.

Results

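Open chromatin after sciatic nerve injury was compared with open chromatin after sham operation in wild-type mice, by ATAC-seq of lumbar dorsal root ganglia (DRG). The members of the comparison are the peak summits of 2 deposited lists, 43841 summits for injured and 27279 for sham ganglia, which together make 71120 of the 155267 summits of the series. A summit is the base of a peak at which its signal is highest. A summit was said to have a partner when the other list held a summit within 200 bp.

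Both groups were wild type for Silc1, a long noncoding RNA gene that is disrupted in the remaining mice of the series (Silc1+/+ against Silc1-/- in the labels). In the injured group the sciatic nerve was crushed at mid-thigh with fine forceps, and the control group was sham operated; what the sham operation included, the time between operation and dissection, and the animals' age are not given in the labels. Male C57black6 Ola HSD mice were bought and the other strains were bred in house, and the labels do not say which of these the wild-type animals were. Each preparation used 6 fresh ganglia of levels L4 to L6, lysed whole with no sorting of cells. Each group had 3 libraries but 1 list, and whether reads were pooled before peaks were called is not given in the sources used here.

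ATAC-seq uses a transposase that inserts sequencing adapters into DNA not wrapped in nucleosomes, so its peaks mark promoters, enhancers and other accessible sites. In these ganglia the cell bodies of sensory neurons lie among satellite glia, Schwann cells, vascular cells, fibroblasts and immune cells. After a crush of the peripheral axon, sensory neurons are known to switch on regeneration-associated genes, among them transcription factors of the AP-1, STAT, SMAD, KLF and SOX families, and macrophages and neutrophils can enter the ganglion. In bulk tissue, a change in the number of cells of a type and a change in chromatin per cell cannot be told apart.

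Because each group had a single list, no spread between animals and no test between groups could be computed, and every difference below is between 2 lists. Read counts are not part of the files, so depth is not known. Intervals printed with a percentage are Wilson intervals at 95% and take in counting error alone. Each summit carries a score by the authors, −log10 of a p or q value as their peak caller wrote it, which was used to rank and filter summits within a list. Scores of the 2 lists are not on a known common scale. Summits with a partner had a median score of 12.5 in the injured list and 7.96 in the sham list.

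Promoters that carried a summit in 1 list alone are shown first. Of the members of 17 gene lists with a link to injury or to cell types of the ganglion, 12 had a summit within 1 kb of an annotated gene start in the injured list and none in the sham list, both as deposited and at equal list lengths: Sox11, Hspb1, Tlx3, Kcnj10, S100b, Retnlg, Camp, Mmp8, Sema4d, Robo2, Dctn1 and Rpl4. The 6 with a summit in the sham list alone were Dnmt3b, Scn11a, Gabra2, Pmp22, Eng and Epha4. Of 17492 coding genes with an annotated start, 6.38% had a summit there in the injured list alone and 1.15% in the sham list alone, and at equal lengths 3.62% and 2.77%. The 12 and 6 members come from 348 listed symbols, some of them repeated and some without an annotated start. They were therefore not read as an excess over these shares. Most genes had a start summit in both lists (48.5%) or in neither (44%), at equal lengths 46.8% and 46.8%. The sequences of 5 of them, chosen after their values were seen, are the 250 bases before the gene start, 5′ to 3′ on the gene's strand, from RefSeq on GRCm38.p6, the assembly also called mm10. Capitals mark every match, on either strand, to the letters of the AP-1 site (TGANTCA), the cyclic AMP response element or CRE (TGACGTCA), the CCAAT box (CCAAT), the ETS site (CCGGAAG) and the GC box (GGGCGG). The following 4 had a summit in the injured list alone.
Sox11 (chr12:27342719-27342968, minus strand): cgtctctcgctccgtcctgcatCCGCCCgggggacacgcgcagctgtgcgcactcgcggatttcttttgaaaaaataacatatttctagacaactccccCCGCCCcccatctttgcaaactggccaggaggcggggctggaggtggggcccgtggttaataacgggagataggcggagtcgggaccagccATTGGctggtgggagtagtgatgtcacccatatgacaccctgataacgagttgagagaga
Hspb1 (chr5:135887669-135887918, plus strand): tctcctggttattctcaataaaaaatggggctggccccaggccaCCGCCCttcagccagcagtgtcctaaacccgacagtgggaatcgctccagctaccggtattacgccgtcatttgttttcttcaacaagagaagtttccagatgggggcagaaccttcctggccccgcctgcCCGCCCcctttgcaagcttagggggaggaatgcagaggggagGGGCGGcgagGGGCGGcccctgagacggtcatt
Kcnj10 (chr1:172340960-172341209, plus strand): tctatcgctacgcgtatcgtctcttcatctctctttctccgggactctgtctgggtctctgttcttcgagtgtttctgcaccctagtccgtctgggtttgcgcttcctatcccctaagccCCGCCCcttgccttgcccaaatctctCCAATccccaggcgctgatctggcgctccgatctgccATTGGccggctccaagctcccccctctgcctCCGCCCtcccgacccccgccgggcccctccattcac
Retnlg (chr16:48872358-48872607, plus strand): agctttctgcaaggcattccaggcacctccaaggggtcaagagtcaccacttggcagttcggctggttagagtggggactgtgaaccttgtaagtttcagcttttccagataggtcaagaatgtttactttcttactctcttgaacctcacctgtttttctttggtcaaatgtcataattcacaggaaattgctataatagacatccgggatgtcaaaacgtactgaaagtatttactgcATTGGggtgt

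Sox11 encodes a transcription factor of developing and regenerating neurons. Its injured summit lay 5 bp before the start, at chr12:27342723, with a score of 7.44, and the nearest sham summit was 100140 bp away. Hspb1, a small heat shock protein induced in injured neurons, had its summit 53 bp before the start (chr5:135887866, score 5.93), with the nearest sham summit 7857 bp away. Kcnj10, the inward rectifier potassium channel of satellite glia, had 1 at 61 bp before the start (score 6.67), and all 5 injured summits nearest to this gene lay 11582 to 25098 bp from any sham summit. Retnlg encodes a resistin-like protein secreted by neutrophils. Its summits lay 689 and 98 bp before the start (scores 8.03 and 3.76) and 7401 bp before it (13.4), and no sham summit came closer than 121579 bp. The Sox11, Hspb1 and Kcnj10 promoters hold GC boxes and 12 to 17 CpG dinucleotides in the 250 bases, whereas that of Retnlg holds 3 CpG and no GC box.

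The next promoter had a summit in the sham list alone. Pmp22 encodes a protein of peripheral myelin, and its sham summit lay 63 bp before an annotated start inside the gene (chr11:63132740, score 5.53). The nearest injured summit was 3093 bp away inside the gene region.
Pmp22 (chr11:63132553-63132802, plus strand): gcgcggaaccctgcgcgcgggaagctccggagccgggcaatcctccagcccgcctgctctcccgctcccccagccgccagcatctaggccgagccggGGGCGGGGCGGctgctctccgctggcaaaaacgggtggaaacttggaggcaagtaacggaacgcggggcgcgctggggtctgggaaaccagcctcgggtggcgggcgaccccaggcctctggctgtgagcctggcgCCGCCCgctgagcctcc

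Scn11a, the sodium channel Nav1.9 of nociceptors, likewise had a sham summit 38 bp before its start (chr9:119825494, score 2.92), and the nearest injured summit was 19442 bp away. Epha4, an axon guidance receptor, had 1 at 90 bp before its start (score 5.59), with an injured summit 1211 bp away. These 3 summits were weak, with ranks from 14441 to 24091 among the 27279 scores of the sham list. The injured-only start summits of Sox11, Kcnj10, Hspb1 and Retnlg were not among the strong ones of their list either. Among its 43841 scores, those of Sox11, Kcnj10 and Hspb1 ranked 17012, 18508 and 20349, and the Retnlg summit 98 bp before the start ranked 31434. Of the injured-only members named, Dctn1 (rank 10623, score 13.3) and Camp (rank 12442, score 10.8) ranked highest.

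Over all annotated promoters, the highest-scoring injured summits inside a promoter window with no sham summit within 1 kb lay at Araf, which encodes a RAF kinase, Slc12a9, a member of the cation-chloride cotransporter family, and Slco4c1, an organic anion transporter. Their scores were 25.3, 24.7 and 23.2, and the nearest sham summits were 50169, 16521 and 166623 bp away. The summit lay 73 and 61 bp before the start at Araf and Slco4c1, and 17 bp after it at Slc12a9.
Araf (chrX:20848293-20848542, plus strand): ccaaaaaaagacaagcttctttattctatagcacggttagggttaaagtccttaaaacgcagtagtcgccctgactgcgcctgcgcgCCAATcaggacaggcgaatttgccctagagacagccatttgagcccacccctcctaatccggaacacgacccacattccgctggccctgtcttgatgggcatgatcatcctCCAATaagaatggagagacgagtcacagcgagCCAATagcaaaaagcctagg
Slc12a9 (chr5:137333583-137333832, minus strand): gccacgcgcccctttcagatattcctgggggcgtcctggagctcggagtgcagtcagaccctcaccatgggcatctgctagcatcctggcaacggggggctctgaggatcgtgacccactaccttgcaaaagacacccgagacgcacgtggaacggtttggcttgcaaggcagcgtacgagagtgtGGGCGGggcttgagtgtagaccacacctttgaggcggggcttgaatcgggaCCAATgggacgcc
Slco4c1 (chr1:96872172-96872421, minus strand): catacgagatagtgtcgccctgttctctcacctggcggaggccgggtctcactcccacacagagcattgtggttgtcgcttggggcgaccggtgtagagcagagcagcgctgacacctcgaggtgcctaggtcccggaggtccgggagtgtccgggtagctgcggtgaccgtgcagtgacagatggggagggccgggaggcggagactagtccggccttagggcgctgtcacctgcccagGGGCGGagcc

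The sham counterparts were weaker. They lay at Gm9758, Spata7, which encodes a protein of the photoreceptor cilium, and Lrp3, a member of the LDL receptor family, with scores of 11.4, 10.3 and 8.24 and with injured summits 6618, 46551 and 19518 bp away. Gm9758 lies in a stretch of chromosome 5 that holds genes with near-identical copies, so reads there may be split among copies and its values are uncertain.
Gm9758 (chr5:14914890-14915139, minus strand): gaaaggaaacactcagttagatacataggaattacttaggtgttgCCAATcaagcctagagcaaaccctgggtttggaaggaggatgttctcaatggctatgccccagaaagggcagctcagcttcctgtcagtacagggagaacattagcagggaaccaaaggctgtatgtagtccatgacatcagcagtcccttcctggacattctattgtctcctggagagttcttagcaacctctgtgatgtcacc
Spata7 (chr12:98627892-98628141, plus strand): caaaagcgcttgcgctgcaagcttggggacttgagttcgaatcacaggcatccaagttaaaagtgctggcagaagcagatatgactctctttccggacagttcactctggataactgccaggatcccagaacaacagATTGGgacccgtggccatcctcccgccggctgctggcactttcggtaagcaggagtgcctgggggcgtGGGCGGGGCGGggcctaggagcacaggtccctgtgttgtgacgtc
Lrp3 (chr7:35215346-35215595, minus strand): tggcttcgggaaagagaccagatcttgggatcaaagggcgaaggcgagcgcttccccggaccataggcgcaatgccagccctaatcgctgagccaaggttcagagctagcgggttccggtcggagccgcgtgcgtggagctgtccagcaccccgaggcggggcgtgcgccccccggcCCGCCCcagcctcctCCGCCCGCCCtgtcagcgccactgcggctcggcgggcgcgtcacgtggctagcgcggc

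The Araf promoter shows CCAAT boxes at 3 places and no GC box. Lrp3 lies at the other end, with 3 GC boxes by count and 38 CpG in the 300-base window, and Gm9758 has no CpG there at all. Slc12a9 and Slco4c1 were alike, with 63% GC and 19 and 21 CpG in the window.

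Promoter windows with a summit in 1 list alone were compared with all 32817 distinct windows in the reference, each from 250 bases before to 50 bases after a start. Windows with a summit in both lists numbered 7314 and were rich in CpG (median 24 per window; GC content 63.3%). The 1014 windows with an injured summit and no sham summit within 1 kb of it had a median of 13 CpG and a GC content of 57.5%. The 120 windows of the opposite kind had 19 CpG and 61.8%, and all windows together had 7 and 52.7%. At equal lengths the numbers of windows were 587 and 306, with medians of 13 and 20 CpG, so promoters with a summit in the injured list alone were poorer in CpG than those with a summit in the sham list alone or in both.

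Motif letters differed between the kinds of window as well. The GC box was present in 74.0% of windows with a summit in both lists, 50.3% of the injured-only windows, 65.0% of the sham-only windows and 35.6% of all windows, and at equal lengths in 74.3%, 49.6% and 63.7% of the first 3 kinds. The ETS letters were present in 23.4%, 10.1%, 3.33% and 8.86%, and at equal lengths in 23.7%, 12.9% and 7.52%. The CRE letters were present in 4.31%, 2.66%, 4.17% and 1.79%, and at equal lengths in 4.37%, 2.90% and 3.27%. GC box and ETS letters were thus commonest where both lists had a summit. The AP-1 letters, the binding site of the JUN, FOS and ATF3 family, showed another order. They were found in 3.73% of windows with a summit in both lists, 8.28% of injured-only, 5.0% of sham-only and 7.81% of all windows, with 9.36% in windows with no summit. At equal lengths the first 3 shares were 3.65%, 7.67% and 6.54%. The letters of the STAT site (TTCNNNGAA) were found in 6.04%, 8.19%, 5.0% and 8.29% of windows, and at equal lengths in 6.12%, 8.86% and 3.92%. The sham-only shares as deposited rest on few of 120 windows, namely 4 for ETS, 5 for CRE, 6 for AP-1 and 6 for STAT. A match of letters is a description and not a binding site, and summits away from promoters were not searched.

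Over the whole lists, 23958 injured summits had no sham partner, 54.6% of the list (54.2 to 55.1), against 7386 sham summits with no injured partner, 27.1% (26.6 to 27.6). The injured list is 1.61 times as long, so it was also cut to its 27279 highest scores, the length of the sham list, which keeps scores of 4.49 and above. The shares then became 37.8% (10323 summits) and 37.6% (10248 summits). Lists of equal length give nearly equal numbers by construction. Of the sham summits without a partner at equal lengths, 2862 or 27.9% had an injured partner as deposited that the cut removed. Injured summits without a partner at equal lengths are all without a partner as deposited too, because the sham list was not cut.

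Partners lay close together and the sites lacking one differed in how isolated they were. The median distance between partners was 37 bp, and 62.2% of injured summits with a partner had it within 50 bp. As deposited, 14688 injured summits (33.5%) and 2184 sham summits (8.01%) had no summit of the other list within 10 kb. These were 61.3% and 29.6% of the summits without a partner, so most sham summits without a partner stood within 10 kb of an injured summit. At equal lengths the values were 56.2% and 47.9%. Injured summits with a partner over 100 and up to 200 bp away numbered 2960 and had a median score of 7.44, and the 1369 with the nearest sham summit over 200 and up to 300 bp away had 6.67. For sham summits the numbers just inside and just outside the threshold were 2966 and 1365, with a median score of 5.59 in both.

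Partners were lacking mostly at low scores. With each list split into 10 bins of equal size by score, 5.84% of injured summits lacked a partner in the highest bin, 46.2% in the fourth and 86.5% in the lowest. In the sham list the shares in the same bins were 6.74%, 12.5% and 59.3%. The strongest sites were thus shared: of the 1000 highest scores, 49 injured and 74 sham summits had no partner, and 1 and 2 of them had none within 10 kb. Among the 5000 highest scores the numbers with none within 10 kb were 5 and 5. The median score was 12.5 with and 3.82 without a partner in the injured list, and 7.96 and 3.54 in the sham list.

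**Figure D1:**
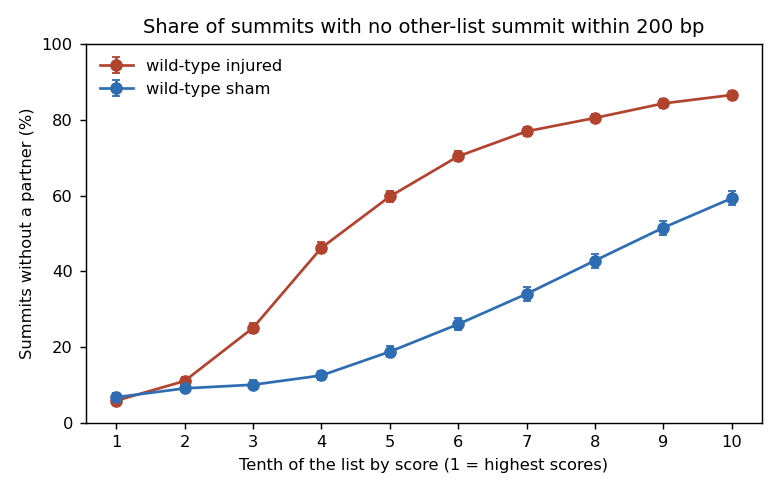
Share of summits without a partner (vertical axis, percent) in each of 10 equal bins of a list by score (horizontal axis, 1 = highest scores), for the wild-type injured and sham lists as deposited; bars are 95% Wilson intervals. Both curves start near 6%, and the injured curve climbs to 86.5% and the sham curve to 59.3% in the lowest bin.

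Among summits that had a partner, score ranks were alike. Over 19756 mutual pairs the Spearman correlation of ranks was 0.835, a description across sites of 2 lists with no test. It was 0.885 over the 9680 pairs within 1 kb of a gene end and 0.696 over the 10076 others. The rank moved by a median of 9.12 percentile points, and 2646 pairs (13.4%) moved by more than 25. Of these, 554 at gene ends stood higher in the injured list and 363 lower, while away from gene ends 767 stood higher and 962 lower.

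The largest shifts at gene ends were named at equal lengths, where pairs with an injured score below 4.49 are left out, so larger falls may lie among the pairs removed. Erlec1, an endoplasmic reticulum lectin, had an injured score of 30.7 and a sham score of 3.54 at summits 4 bp apart. Tpx2, a spindle assembly factor, had 43.5 and 4.89, and Psme3, a proteasome activator subunit, 27.2 and 3.54. Slc25a17, a peroxisomal carrier, Wdr70, Rnf113a2, Ncoa6, a nuclear receptor coactivator, and Psenen, a subunit of gamma-secretase, made up the rest of the 8 largest rises, with injured scores of 22.3 to 27.7 and sham scores of 3.48 to 4.20. In the other direction, Mpdz, a multiple PDZ protein, had an injured score of 4.49 and a sham score of 14.7. Nmnat1, a nuclear NAD-synthesising enzyme, had 4.49 and 13.8, and Dagla, the diacylglycerol lipase that makes the endocannabinoid 2-AG, had 5.04 and 12.7. Gprin3, Dcaf5, Cdk17 and Gm51581 were also among the 8 largest falls, as was a pair 77330 bp from Fut8. None of these genes belongs to the regeneration list.

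The 10 shared pairs with the highest scores lay outside genes in 6 cases and at nearly the same base in both lists. The highest stood at chr2:98666996 with scores of 35977 and 35927, the next at chr14:19417300 with 29128 and 29238, and the third at chr9:3001445 and chr9:3001460 with 19916 and 19907. Of the 10, 1 lay at a gene end, 573 bp from an annotated start near Tmem125, and 3 lay inside genes, among them Chl1, a neural cell adhesion molecule (chr6:103649206, scores 5072 and 5368). The extreme scores at the top of both lists were thus the same sites in both conditions. The 100 highest scores of a list reached down to 198 for injured and 193 for sham, far below these. Whether repeated sequence adds to these scores was not tested, so they were not read as the most open sites.

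Gene placement separated shared from unshared summits more than it separated the conditions. A gene end means here within 1 kb of either end of a coding or lncRNA gene. With a partner, 9751 of 19883 injured and 9748 of 19893 sham summits lay at a gene end, and these near-equal numbers follow from partners lying within 200 bp. Without one, 18.1% of injured (17.6 to 18.6) and 23.2% of sham summits (22.2 to 24.1) did. At equal lengths these became 21.0% (20.2 to 21.8) and 22.9% (22.1 to 23.7). The order of the conditions at gene ends turned around with a joining distance of 1000 bp (13.4% and 11.4%) and among scores of at least 10 (43.5% and 28.4%).

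Inside genes the injured summits stood out. Of injured summits without a partner 46.5% lay inside a gene more than 1 kb from its ends, against 37.5% of sham summits, and at equal lengths 44.4% and 38.7%. Outside genes and over 50 kb from any gene end, the sham summits stood out, with 16.3% against 10.1%, and at equal lengths 15.5% (14.8 to 16.2) against 8.61% (8.09 to 9.17). The higher share of sham summits far from genes held at joining distances of 50 and 1000 bp, at scores of at least 5 and 10 and on the autosomes alone (13.5% against 8.92%). Among summits with no other-list summit within 10 kb it was 18.3% for sham and 10.9% for injured.

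**Figure D2:**
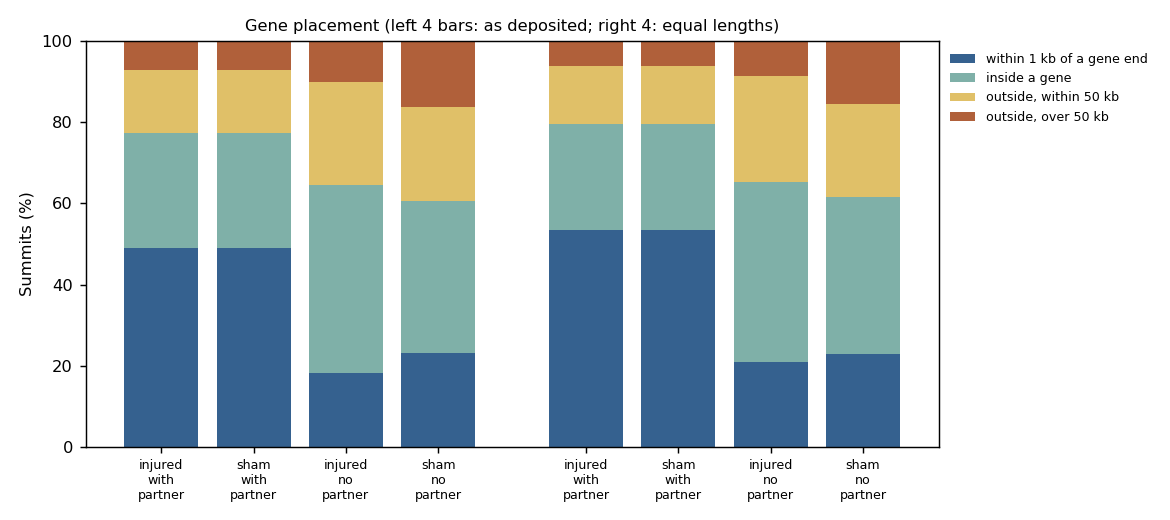
Placement of summits (vertical axis, percent of each class) within 1 kb of a gene end, inside a gene, outside within 50 kb of an end and farther away, for injured and sham summits with and without a partner. Bars of summits with a partner are alike in both lists, and the farthest class is larger in sham (16.3% as deposited) than in injured summits (10.1%) without a partner.

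By place, gene ends were where the lists shared most. As deposited, 30.8% of injured and 14.9% of sham summits at gene ends had no partner. Inside genes the shares were 66.4% and 32.9%. Over 50 kb from a gene end they were 62.9% and 45.8%, and at equal lengths 46.2% and 60.4%. Sites far from genes were thus the least shared class of the sham list in both settings, and of the injured list in neither.

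Around gene starts, the sham summits without a partner lay in a different position from the rest. With a partner, the median position was 33 bp before the start in the injured list and 29 bp before it in the sham list, and 66.2% and 63.0% of these summits lay upstream. Without a partner, the 3334 injured summits within 1 kb of a start had a median of 19 bp after it, and the 1486 sham summits 178.5 bp after it. Only 33.1% of the latter lay upstream, against 45.5% of the former. At equal lengths the medians were 2 bp before the start for 1691 injured summits and 156 bp after it for 2001 sham summits.

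The difference lay in the stretch 100 to 600 bp downstream of the start, a window chosen after the profile was seen. It held 9.26% of sham summits without a partner (8.62 to 9.94) and 4.16% of injured ones (3.92 to 4.42), and at equal lengths 8.50% and 3.97%. As deposited these were 684 sham and 997 injured summits. Of the sham ones, 593 (86.7%) had an injured summit within 1 kb, and at 508 (74.3%) the injured list held a summit within 250 bp of the start itself. Of the injured ones, 629 (63.1%) had a sham summit within 1 kb and 529 (53.1%) had a sham summit at the start. The median score was 3.91 for the sham and 3.82 for the injured summits. The promoter windows of these starts held a median of 24 CpG for sham and 19 for injured, so most of these sham summits were weak summits downstream of CpG-rich starts that carried a summit in the injured list too.

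**Figure D3:**
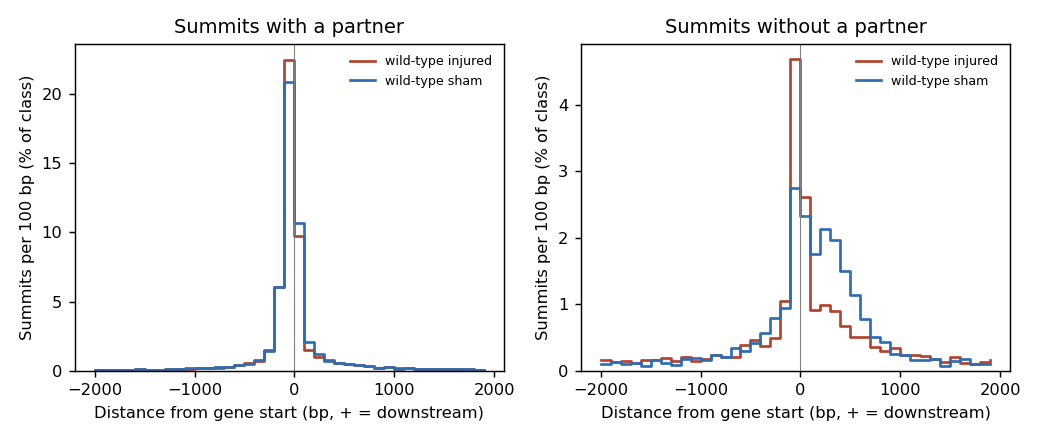
Position of summits relative to the nearest annotated gene start (horizontal axis, bp, positive downstream) at equal list lengths, as percent of each class per 100 bp (vertical axis, with a different scale in each panel). With a partner the curves coincide just upstream of the start, and without one the sham curve has a shoulder at about 100 to 600 bp downstream.

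Summits were then linked to the nearest coding gene within 50 kb. By this rule 44.3% of 21887 coding genes were nearest to at least 1 injured summit without a partner and 18.9% to at least 1 sham summit without a partner, and at equal lengths 27.6% and 24.3%. Such genes were long, with a median of 36284 bp for injured and 39559.5 bp for sham at equal lengths against 17169 bp for all coding genes, so the called genes were longer than coding genes as a whole. The median difference between injured and sham summits without a partner at equal lengths was 0 for all coding genes and for each of the 17 lists.

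Transcription factors of the regeneration program carried summits without a partner in both directions. As deposited, 22 of 25 were called for injured (88.0%) and 13 for sham (52.0%), above the background in both, and at equal lengths 15 and 15. Every one of the 25 had at least 1 injured summit. Smad3, an effector of TGF-beta signalling, had 11 injured summits and 4 sham summits, and 5 of the injured ones were without a partner at equal lengths, against 1 sham summit. The strongest of these lay at chr9:63780695, 56 bp after an annotated start outside the gene, with a score of 14.3 and no sham summit within 10733 bp. Myc, a growth regulator, had 6 injured and 2 sham summits, and 4 injured summits had no partner while both sham summits had one.

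Single factors differed. Atf3, the standard marker of injured sensory neurons, had summits at its start in both lists, 175 bp apart, with scores of 15.6 in injured and 3.54 in sham. As deposited Atf3 had 2 injured summits and 1 sham summit without a partner, and at equal lengths 0 and 1. Summits with a partner scored higher in the injured list in general, with medians of 12.5 and 7.96. Jun had a shared summit at its start with scores of 31.4 and 21.7. Sox11 was the one gene of the list with a start summit in the injured list alone, and 16 had one in both lists. Klf9, a factor that restrains axon growth, had 5 sham and 3 injured summits, and 2 sham summits had no partner. Sox4 had 6 injured and 5 sham summits as deposited, but 3 of its sham summits lost their partner at equal lengths.

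Among 24 regeneration effectors, 14 were called for injured (58.3%) and 5 for sham (20.8%), and at equal lengths 9 (37.5%) and 6. Over all coding genes the shares were 44.3% and 18.9%, and at equal lengths 27.6% and 24.3%. The sham calls of the effectors lay near these shares, and their injured calls lay above them. Stmn2, a tubulin-binding protein of growing axons, had 7 injured summits and 1 sham summit. Its injured summit at chr3:8509441, beside the gene boundary at chr3:8509527, had a score of 5.68 and no sham summit within 57805 bp. No annotated start was available for Stmn2, so whether this boundary is its start was not read. Lifr, a receptor chain for the LIF family of cytokines, had 8 and 3, with 3 injured and no sham summits without a partner at equal lengths. Socs3, a feedback inhibitor of STAT3, had 9 and 6. For 8 members, namely Sprr1a, Npy, Vip, Nts, Ecel1, Csrp3, Adcyap1 and Arg1, neither list had a summit nearest to the gene, although several of them are among the best known injury-induced transcripts.

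Sensory neuron identity genes leaned the other way at equal lengths. Of 25 genes, 5 were called for injured and 11 for sham (44.0%), with 6 and 21 summits, while as deposited the numbers were 12 and 10 genes and 29 and 19 summits. Over all coding genes the shares were 27.6% and 24.3% at equal lengths, and 44.3% and 18.9% as deposited. The sham calls of the identity genes lay above these shares in both settings. Their injured calls lay near the share as deposited and below it at equal lengths. Runx1, a factor of nociceptor subtypes, had 12 sham and 9 injured summits, and 7 sham summits had no partner in either setting. They had scores of 2.32 to 6.88, and 3 of them, at chr16:92654794, chr16:92660978 and chr16:92774484, lay 19604 to 27346 bp from the nearest injured summit. Runx1 also had shared summits, 1 of them at an internal start with scores of 21.9 in sham and 35.1 in injured. It is expressed in blood cells as well as in neurons. Isl1, a factor of sensory neurons, had a shared summit at its start with scores of 13.4 in injured and 5.59 in sham, and 2 sham summits outside the gene with no injured partner, 37325 and 15884 bp from the nearest injured summit.

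At equal lengths 10 of the 25 identity genes had more sham than injured summits without a partner, and 3 had more injured ones. Runx1 holds 7 of the 21 sham summits without a partner at equal lengths. Nefl and Tac1, which encode the light neurofilament chain and substance P, had 5 injured summits each, against 0 and 1 in sham, and most of these were removed by the cut. The markers Pvalb, Avil and Shox2 had no nearest summit in either list, so these lists do not check the tissue label by those genes.

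Sensory neuron channel genes were called in 17 of 24 for injured (70.8%) and 9 for sham (37.5%), and in 10 and 10 (41.7% each) at equal lengths. The shares over all coding genes were 44.3% and 18.9%, and at equal lengths 27.6% and 24.3%. Grik1, a kainate receptor subunit, had 10 injured and 4 sham summits, of which 2 and 3 were without a partner at equal lengths. Gabra2, a GABA-A receptor subunit, had 3 in each list, all 3 injured ones below the cut. Trpv1, Trpa1, P2rx3, Scn1a and Kcna2 had no nearest summit in either list. Axon guidance genes are among the longest here, with a median of 197079 bp. Of 25, 19 were called for injured (76.0%) and 11 for sham (44.0%), and at equal lengths 16 (64.0%) and 19 (76.0%). Sema3a, a repulsive guidance cue, had 7 injured and 3 sham summits, and 1 and 3 were without a partner at equal lengths. Axonal cytoskeleton and transport genes were called in 18 and 10 of 20, and at equal lengths in 7 and 12. Kif5c, a kinesin heavy chain, had 5 summits in each list, and Dync1i1, a dynein intermediate chain, 6 injured and 2 sham.

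Myeloid markers leaned to the injured list in both settings. Of 22 macrophage markers, 15 were called for injured (68.2%) and 4 for sham (18.2%), and at equal lengths 12 (54.5%) and 4 (18.2%), with 15 and 7 summits. The background was 44.3% and 18.9% as deposited, and 27.6% and 24.3% at equal lengths. Ptprc, the pan-leukocyte antigen CD45, had 1 shared summit inside the gene with scores of 36.0 in injured and 12.0 in sham. It had 3 more injured summits, 2 of them kept at equal lengths with scores of 8.23 and 11.6, at 22595 and 55669 bp from the nearest sham summit. Spi1, the myeloid master regulator PU.1, had 2 shared summits and 3 further injured summits, with scores of 4.27, 9.15 and 7.35 and the nearest sham summit 6132 to 13670 bp away.

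Cx3cr1, Csf1r, Adgre1, Trem2 and Cd163 were each nearest to injured summits and to no sham summit, with 1 kept at equal lengths in each. The summit of Cd163 lay 31211 bp outside the gene. That of Adgre1 lay 11412 bp outside, with a score of 4.49, the lowest score kept, where file order decided among ties. Itgam, an integrin of myeloid cells, had 8 injured and 3 sham summits as deposited, but its injured summits were weak, with scores of 1.99 to 5.92, and at equal lengths 2 injured and 3 sham summits had no partner. Mrc1 had 3 injured and 2 sham summits, all without a partner. Irf8 and Aif1 had only shared summits. Cd68, C1qa, C1qb and C1qc, which are among the most abundant macrophage transcripts, had no nearest summit in either list.

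Of 13 neutrophil markers, 10 were called for injured (76.9%) and 1 for sham (7.69%), and at equal lengths 6 (46.2%) and 1. Besides Retnlg, the gene Camp, which encodes the antimicrobial peptide cathelicidin, had a single summit, 154 bp before its start (chr9:109849610, score 10.8), with the nearest sham summit 5987 bp away. Mmp9, a gelatinase, had 1 shared summit and 2 injured summits of scores 5.51 and 5.19 more than 10 kb from a sham summit. S100a9 had 6 injured and 2 sham summits, but both injured summits that remained at equal lengths had a partner. Of 13 T and B cell markers, 6 were called for injured (46.2%) and 0 for sham, and at equal lengths 4 (30.8%) and 0. Cd3e, Cd4, Lck and Ebf1 were then each nearest to 1 injured summit without a partner, which for Cd3e lay 13310 bp outside the gene. The injured shares of this list lay near those over all coding genes (44.3%, and 27.6% at equal lengths). Mpo and Elane, which mark immature neutrophils, and lymphocyte markers such as Cd8a had no nearest summit in either list.

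For vessel and stroma markers the numbers were small, and at equal lengths the endothelial counts lay near the shares over all coding genes. Endothelial genes were called in 9 and 3 of 15 and at equal lengths in 5 and 3, and mural and fibroblast genes in 8 and 2 of 15 and at equal lengths in 5 and 2. Acta2, smooth muscle actin, had 3 injured and no sham summits, Pdgfra, a fibroblast receptor, 2 and none, and Col1a1, a collagen chain, 3 and 1. Eng, an endothelial coreceptor of TGF-beta, and Notch3, a receptor of mural cells, leaned to sham at equal lengths. Eng had 0 injured and 1 sham summit without a partner there, and Notch3 had 1 sham summit without a partner as deposited and 3 at equal lengths, where its injured summits (scores of 2.57 to 4.40) were below the cut. Satellite glia and Schwann cell genes were called in 8 and 3 of 20 and in 5 and 5 at equal lengths. These glial counts lay near the shares over all coding genes, 44.3% and 18.9%, and at equal lengths 27.6% and 24.3%. Sox10, Cdh19 and Ednrb among the glial genes had no nearest summit in either list.

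Lists not tied to a cell type of the ganglion are given beside these counts. Their median gene length ran from 3620 bp for immediate-early genes to 58840 bp for chromatin regulators, so they do not form a common scale. Over all coding genes the shares were 44.3% for injured and 18.9% for sham, and at equal lengths 27.6% and 24.3%. Housekeeping genes were called in 13 and 3 of 25, and at equal lengths in 9 and 5, with summits at the start in both lists at all 19 genes that have an annotated start. Ribosomal protein genes were called in 6 and 5 of 20, and at equal lengths in 6 and 5. Immediate-early genes were called in 14 and 8 of 20, and at equal lengths in 9 and 11. Chromatin regulators were called in 12 and 8 of 22, and in 10 and 10, and skeletal muscle genes, which mark a tissue outside the ganglion, in 8 and 3 of 20, and in 1 and 3. How much of the lean of the immune lists comes from more immune cells in the injured ganglia was not tested.

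**Figure D4:**
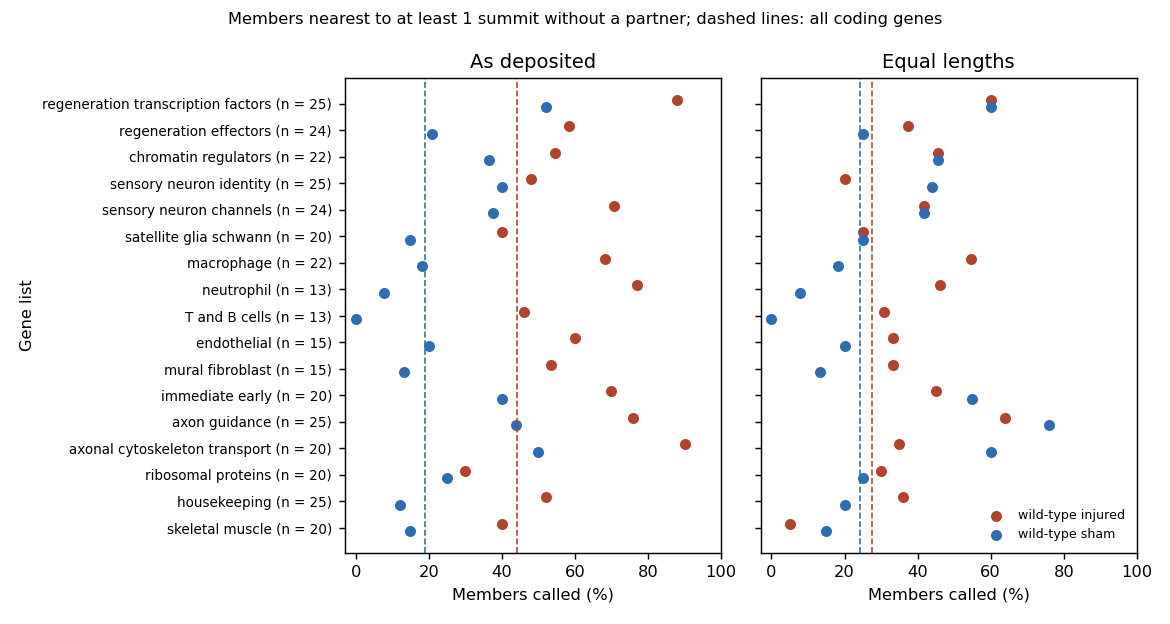
Share of members of each gene list (horizontal axis, percent) that were nearest to at least 1 summit without a partner, for injured and sham summits, as deposited and at equal lengths; dashed lines are the shares over all coding genes. At equal lengths macrophage (54.5% and 18.2%) and neutrophil markers (46.2% and 7.69%) lie to the injured side, and sensory neuron identity genes (5 and 11 of 25) to the sham side.

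By single gene, injured summits without a partner were most numerous at Sgms1, which encodes a sphingomyelin synthase, with 10 at equal lengths and 18 injured against 6 sham summits in all. Atrnl1 and Mbnl2, a splicing regulator, had 9 each, beside 5 and 7 sham summits without a partner, and Nedd4l, a ubiquitin ligase of ion channels and transporters, also had 9, with 13 injured and 2 sham summits in all. Cmip, Cradd, Dlgap1, a postsynaptic scaffold, and Fyb had 8 each, beside 6, 2, 2 and 1 sham summits without a partner. Fyb encodes an adapter protein of T cells and myeloid cells, and its 14 injured summits included 1 at 30 bp before an annotated start inside the gene (chr15:6579817, score 6.67) with no sham summit within 28489 bp. Its 3 sham summits all had an injured partner as deposited. These genes are 142813 to 852341 bp long, all above the median gene length.

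Sham summits without a partner were most numerous at Sfi1, with 19 at equal lengths and 13 as deposited, then at 4932411N23Rik on the X chromosome, with 16 and 15. Speer4d and Gm17019 on chromosome 5 and Gm52481 on the Y chromosome followed with 10, 9 and 8 at equal lengths and 5, 7 and 8 as deposited. Speer4d belongs to a gene family with near-identical copies, Sfi1 lies beside repeated sequence, and the values of all 5 are uncertain where reads could be split among copies. Zmiz1, a coactivator of nuclear receptors and SMAD proteins, had 9 and 7, Ank2, an ankyrin, 8 and 7, and Aopep 8 and 6 in these settings, and all 3 are long genes. Ank2 had 18 injured and 13 sham summits in all.

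The strongest isolated injured site, with no sham summit within 10 kb, lay inside Immp2l, a mitochondrial peptidase subunit, at chr12:41515160, with a score of 74.8 and the nearest sham summit 491203 bp away. The next lay at chr8:123615142, 38787 bp from Rhou, with a score of 56.4, and at chr7:64483831, 17729 bp from Apba2, with 46.0. Ifngr2, a chain of the interferon gamma receptor, had a site 12389 bp outside the gene (chr16:91534670, 35.1). Itga9, an integrin chain, had 1 inside the gene (chr9:118674983, 33.0), and Xcr1, a chemokine receptor of dendritic cells, had 1 at 11023 bp from the gene (chr9:123873052, 26.4).

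The strongest isolated sham sites lay at chr7:64468851, 32709 bp from Apba2 (score 46.9), and at chr8:123573538, 36881 bp from Gas8 (45.6). The first stood 14980 bp from the injured site near the same gene, and the other 41604 bp from the injured site near Rhou, so both loci held a strong site in each list at different positions. Grk5, a kinase of G-protein-coupled receptors, had a site inside the gene (chr19:60924731, 28.9), 15394 bp from an injured summit, and Spata5 had 1 (chr3:37481616, 19.5) with none within 61918 bp. Because only the injured list was cut, a sham site can regain a neighbour as deposited and an injured site cannot. Of the 10 sham sites named, 7 had no injured summit within 10 kb as deposited, and 1, outside Frmpd1, had an injured summit 38 bp away that the cut removed.

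At gene ends, the strongest injured sites without a sham summit within 1 kb lay at Zmym1 (score 26.4), inside Vmp1 at the end of Gm51914 (24.2), at Slco4c1 (23.2), and at Dynlt3, a dynein light chain, on the X chromosome (23.2). Hcls1, which encodes a substrate of the LYN kinase in blood cells, had 1 at 41 bp before its start (chr16:36934942, 20.8), with the nearest sham summit 59833 bp away. Unc93b1, which carries Toll-like receptors to endosomes, had 1 at chr19:3935229 (19.9), 5460 bp from a sham summit. It lay beside the gene boundary at chr19:3935158, which may be the start or the end because genes came without strand. Of the 10 sham sites named in the same way, 8 had an injured summit within 1 kb as deposited, among them Uimc1, Pigq, Wwp2 and Tspan9, and 6 had it within 200 bp. Spata7 was the single one with none within 10 kb.

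The sex chromosomes departed from the ratio of the autosomes. On the 19 autosomes the injured list held 1.54 to 1.68 times as many summits as the sham list. On the X chromosome the numbers were 1320 and 974, a ratio of 1.36, and on the Y chromosome 122 and 112, a ratio of 1.09. Sham summits without a partner made up 21.7% to 30.7% on the autosomes, 37.5% on X (34.5 to 40.6) and 52.7% on Y (43.5 to 61.7). At equal lengths X held 737 injured and 974 sham summits, or 803 injured summits with all ties at the lowest score kept, against ratios of 0.918 to 1.08 on the autosomes. The sex of the animals behind each library is not given in the labels, and its part in these numbers was not tested.

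**Figure D5:**
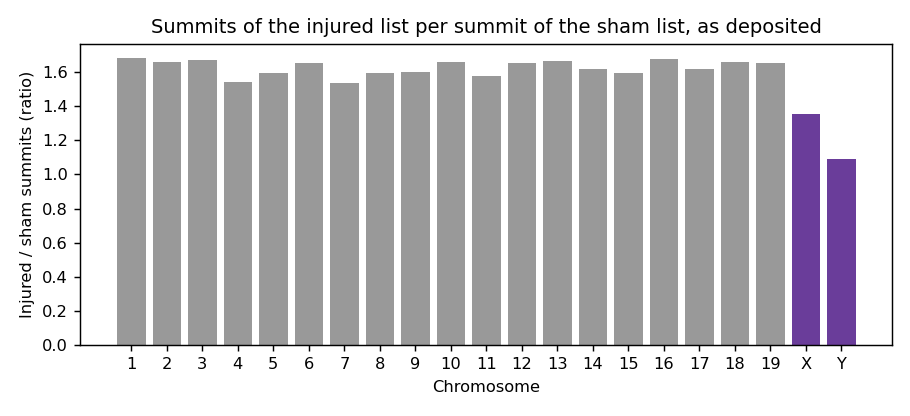
Number of injured summits per sham summit (vertical axis, ratio) on each chromosome (horizontal axis), as deposited. The autosomes lie between 1.54 and 1.68, X at 1.36 and Y at 1.09.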

How the data were processed

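ATAC-seq of dorsal root ganglia was analysed for wild-type injured and wild-type sham mice, 3 libraries and 1 summit list per group; groups came from the titles. Per the submitters' processing notes, Bowtie2, MACS2 and the mm10 build were used. Not given in the sources used here are versions, read filters, insertion shift and pooling. The deposited score is −log10 of either a p-value or a q-value, with no statement of which. The smallest scores were 1.30 and 1.31, just above −log10 of 0.05.

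Summits were joined within 200 bp, as deposited and with the injured list cut to the length of the sham list, ties kept in file order. Genes came from a RefSeq table of GRCm38.p6 without strand, gene starts and promoters from a RefSeq promoter table; starts on chromosome 18 were not used here. Starts were known for 17492 of 21887 coding genes. All 348 symbols of the 17 gene lists were found. The members and lists were chosen with earlier results of these data known. Named sites and genes were the 10 strongest isolated sites per list, overall and at gene ends, the 8 genes with most summits without a partner, up to 3 members per gene list, the 8 largest rank shifts, the 10 highest pairs and the 3 strongest promoters per list; others, such as the members with a start summit in 1 list, were named after their values were seen. Alternatives were other joining distances, score minimums, gene-end distances, gene reach and autosomes alone. The joining was tested on simulated data. Python 3.11.15, numpy 2.4.6, pandas 2.3.3, scipy 1.17.1 and matplotlib 3.10.9 were used.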

Additional observations from a re-analysis of the deposited data

How the results depend on the processing

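No paired analysis was possible because each group has 1 list and no values per library. The percent of injured and of sham summits without a partner was 71.8 and 54.7 with joining within 50 bp, 61.4 and 37.9 within 100 bp, 47.9 and 17.1 within 500 bp, 44.7 and 13.1 within 1000 bp, 48.0 and 19.4 at scores of at least 5, 40.1 and 13.8 at scores of at least 10, 37.8 and 37.6 at equal lengths, and 37.8 and 37.5 with ties taken from the end of the list, chosen after seeing the data. On the autosomes the sham percent was 26.5. The percent at gene ends, injured and sham, was 23.4 and 31.8 at 50 bp, 13.4 and 11.4 at 1000 bp, 43.5 and 28.4 at scores of at least 10, 12.5 and 16.2 with ends within 500 bp, 26.9 and 30.9 within 2500 bp and 14.4 and 21.0 at gene starts, and 21.0 for injured at equal lengths. Coding genes called numbered 6033 for injured at equal lengths, and for sham 2075 at scores of at least 5 and 2121 with no other-list summit within 1 kb. The rank correlation was 0.862 at 50 bp, 0.885 at gene ends and 0.696 away from them. Of 136 counts for gene lists, 89 stayed within 1.5 times the reported count and 47 did not, 13 of them at equal lengths and 22 at scores of at least 5. The cause of these changes was not tested. Depth is unknown, so a summit without a partner may be one below the threshold of the other list, and no difference could be set against a spread between libraries.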
